A study of Rattus norvegicus with 9 samples.

Results

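The mitochondrial carriers of the Slc25 family were followed in the gastrocnemius of rats, a calf muscle with fast and slow fibres. Members were all probe sets whose single gene symbol in the platform annotation started with Slc25a, which gave 58 of the 31042 probe sets other than controls and 40 genes. Of these, 46 probe sets for 35 genes passed a filter on low signal and were tested among 18625 probe sets. A further 2 probe sets that list Slc25a51 for 2 gene records each were not counted as members.

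Male Wistar rats of 250 g were infused from implanted Alzet osmotic pumps for 7 days, and total RNA of 3 animals per group was measured with 1 Affymetrix rat array per animal, 9 arrays in all. The combination group received the synthetic glucocorticoid dexamethasone at 0.7 mg/kg/day together with the androgen testosterone, at 28 mg/kg/day by the sample labels or 20 mg/kg/day by the design text. The dexamethasone group received dexamethasone at 0.7 mg/kg/day, and the vehicle group received propylene glycol, the solvent that all 3 groups shared. The design asks how the glucocorticoid alters transcripts of the muscle and how added testosterone alters that response.

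Carriers of this family sit for the most part in the inner mitochondrial membrane, where each moves a narrow range of solutes, often by exchanging a solute from the cytosol for a solute from the matrix. In muscle they bring in ADP, phosphate and acylcarnitines, let out ATP, and carry the carboxylates and amino acids of the malate-aspartate shuttle, which passes reducing equivalents from the cytosol into the matrix. A few members work elsewhere, such as Slc25a17 in peroxisomes and Slc25a46 in the outer mitochondrial membrane.

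The promoters of Slc25a25, Slc25a22 and Slc25a33 are shown first, because the results return to these 3 carriers most. They were picked after their values were seen. Each stretch runs 5′ to 3′ on the gene's own strand, from 250 bases before to 50 bases after the annotated start, and comes from RefSeq (build GRCr8). Capitals mark letters that match a searched motif. In Slc25a25 (chr3:36116532-36116831, minus strand) they mark the cyclic AMP element TGACGTCA, at -158 from the start. In Slc25a33 (chr5:165502924-165503223, minus strand) they mark the same element at -84 and the E-box CACGTG at -61. In Slc25a22 (chr1:205965828-205966127, minus strand) they mark the glucocorticoid receptor hexamer AGAACA at -152.
Slc25a25: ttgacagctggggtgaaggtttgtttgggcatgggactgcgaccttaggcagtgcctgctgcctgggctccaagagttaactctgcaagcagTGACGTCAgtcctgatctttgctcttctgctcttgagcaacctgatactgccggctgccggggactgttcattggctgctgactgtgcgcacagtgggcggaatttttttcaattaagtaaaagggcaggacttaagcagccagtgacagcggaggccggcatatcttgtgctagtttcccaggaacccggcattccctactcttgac
Slc25a33: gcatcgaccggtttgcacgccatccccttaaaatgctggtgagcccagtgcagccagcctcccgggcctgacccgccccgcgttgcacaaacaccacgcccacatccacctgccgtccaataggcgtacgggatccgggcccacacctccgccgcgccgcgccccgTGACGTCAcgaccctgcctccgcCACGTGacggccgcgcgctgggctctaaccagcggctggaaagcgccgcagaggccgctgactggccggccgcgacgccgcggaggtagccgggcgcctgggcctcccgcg
Slc25a22: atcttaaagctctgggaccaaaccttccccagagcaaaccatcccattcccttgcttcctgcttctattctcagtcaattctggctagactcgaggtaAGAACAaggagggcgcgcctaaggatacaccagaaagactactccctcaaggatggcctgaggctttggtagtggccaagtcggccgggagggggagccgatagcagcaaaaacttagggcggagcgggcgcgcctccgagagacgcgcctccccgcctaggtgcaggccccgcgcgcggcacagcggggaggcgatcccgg

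Promoters of 34 of the 40 carrier genes were in the RefSeq table, and 6 motifs were searched on both strands. The cyclic AMP element TGACGTCA stood in 2 of the 34 (5.88%), Slc25a25 and Slc25a33, and in 1.91% of all 27457 promoters of the table. The hexamer AGAACA stood in 3 (8.82%), Slc25a22, Slc25a1 and Slc25a10, against 20.1% of all promoters, and the pair of AGAACA and TGTTCT with a spacer of NNN between them stood in 0 of 34 and 0.00728% of all. The E-box CACGTG stood in Slc25a31 and Slc25a33 (5.88% of the carriers and 6.65% of all), the ERR element AAGGTCA in Slc25a34 (2.94% and 4.37%), and the TATA box TATAAA in Slc25a38 and Slc25a48 (5.88% and 14.3%). The carrier promoters had a median GC content of 60.33%, from 43.33% in Slc25a21 to 77.67% in Slc25a39, against 52.33% over all promoters, and a median of 17 CpG dinucleotides, against 7. These are matches of letters in a window and not binding sites.

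Values are log2(intensity + 16) after quantile normalization, and a difference on this scale understates the change of dim probe sets. Deposited median signals ran from 25.8 to 131.8 per array. The labels name no batch, but 3 sets of arrays could be told apart and are called technical batches here. Batch A holds the 4 arrays whose mean signal without the extremes (113.3 to 206.8) had not been scaled to 500, namely replicate 1 of each group and vehicle replicate 3. Batch B holds replicate 2 of each group. Batch C holds dexamethasone and combination replicate 3, where Gapdh gave 4.94 to 6.22 times as much signal at its 3′ as at its 5′ end, against 1.06 to 1.17 times in the other 7 arrays. Batch C holds no vehicle array. A list of 8 muscle fibre markers averaged 14.62 to 14.68 in combination arrays, 14.61 to 14.74 in dexamethasone arrays and 14.73 to 14.74 in vehicle arrays, so that markers of the labelled tissue were present in all 9 arrays.

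With dexamethasone, no Slc25a carrier passed the test, and the clearest difference was a higher Slc25a25. Of the 46 tested probe sets, 0 had an adjusted p under 0.05 (limma with Benjamini-Hochberg adjustment over 18625 probe sets), while 1.05% of all probe sets did. At an unadjusted p under 0.05 there were 7 (15.2%), against 15.5% of all probe sets. Of these, Slc25a25, Slc25a22, Slc25a17, Slc25a33, Slc25a35 and Slc25a38 were higher and Slc25a39 was lower in dexamethasone arrays. All 3 dexamethasone arrays lay above all 3 vehicle arrays for 7 members (the same 6 and Slc25a29), while 12.5% of all probe sets did so. All 3 lay below for 3 members (1 probe set each of Slc25a39, Slc25a23 and Slc25a15), against 10.4% of all. The unadjusted share was thus at the background, the share of members above vehicle a little over it and the share below vehicle under it. The median log2 difference of the members was 0.06, against 0.01 for all probe sets, with 24 members higher and 22 lower. Its sign was not stable: leaving out 1 array gave -0.03 to 0.07, with -0.03 without vehicle replicate 2 and -0.02 without dexamethasone replicate 3, and the filter at the 60th percentile gave -0.04. Under median scaling without quantile normalization it was 0.23, where the median of all probe sets was itself 0.20. Each p-value weighs a difference of group means against the spread between arrays of the same group. No term for technical batch entered, so that spread also holds any batch difference.

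With testosterone added to dexamethasone, again no carrier passed the test, and the 4 largest differences (Slc25a22, Slc25a20, Slc25a34 and Slc25a33) were all lower values in the combination. Of the 46 probe sets, 0 had an adjusted p under 0.05 (limma), against 0.113% of all probe sets. An unadjusted p under 0.05 was found for 4 (8.7%), against 11% of all, and all 4 (Slc25a22, Slc25a20, Slc25a33 and Slc25a16) were lower in the combination. The combination arrays all lay above the dexamethasone arrays for 0 members (7.24% of all probe sets) and all below for 5 members, or 10.9% (7.35% of all), namely those 4 and Slc25a36. The members' median difference was -0.14, against 0.00 for all probe sets, with 18 higher and 28 lower. Within batches A, B and C it was 0.03, -0.08 and -0.15. Leaving out 1 array gave -0.19 to -0.04, with -0.04 without combination replicate 3 and -0.06 without combination replicate 1 or dexamethasone replicate 2. Dexamethasone arrays enter this comparison and the one with vehicle, so that a high dexamethasone array moves the 2 differences in opposite directions.

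Between the combination and vehicle, 0 of 46 members and 0% of all probe sets had an adjusted p under 0.05 (limma). At an unadjusted p under 0.05 there were 6 (13%), against 6.12% of all probe sets. Slc25a25 was higher in combination arrays, and Slc25a20, Slc25a36, Slc25a39, 1 probe set of Slc25a23 and 1 of Slc25a13 were lower. The combination arrays all lay above the vehicle arrays for 1 member, Slc25a25 (2.17%, against 7.53% of all probe sets), and all below for 5, Slc25a20, Slc25a36, Slc25a39, Slc25a23 and Slc25a5, or 10.9% (5.79% of all). The members' median difference was 0.03, against 0.02 for all probe sets, which was 0.19 under median scaling. Leaving out 1 array gave -0.05 (without vehicle replicate 3) to 0.06 for the members, with -0.03 without combination replicate 2. The genes Slc25a16, Slc25a29, Slc25a36 and Slc25a38 are named because of these counts, and Slc25a14, Slc25a27 and Slc25a42 to complete their roles, after their values were seen.

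**Figure D1:**
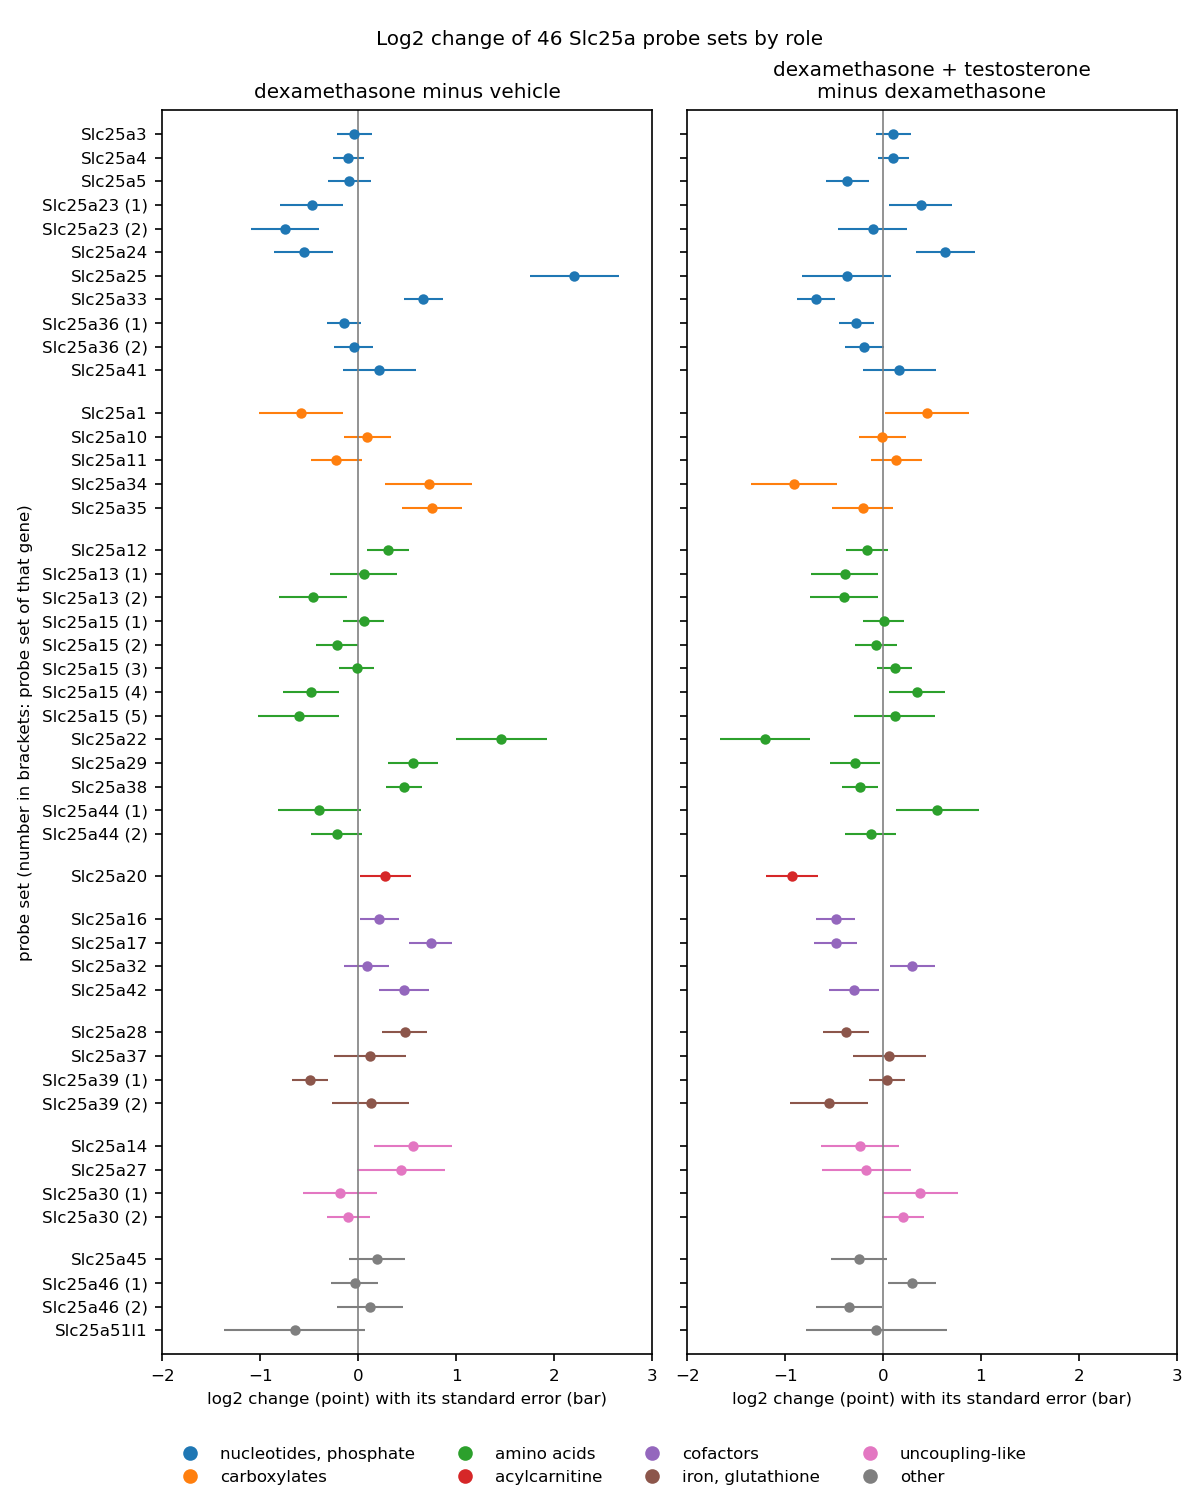
Log2 difference (x axis, with its standard error as a bar) of each of the 46 tested Slc25a probe sets (y axis, grouped by assigned role). Dexamethasone minus vehicle is on the left and the combination minus dexamethasone on the right. Slc25a25 stands at 2.21 on the left and at -0.37 on the right, and Slc25a22 at 1.46 and -1.21. Within 0.5 of 0 lie 33 of the 46 on the left (71.7%, against 73.4% of all probe sets). On the right 39 do (84.8%, against 79.5% of all).

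Carriers of adenine nucleotides and phosphate came first by role. Slc25a25 encodes a calcium-regulated carrier that exchanges ATP-magnesium for phosphate and so sets the adenine nucleotide pool of the matrix. Its log2 values were 9.72, 10.37 and 9.22 in combination arrays, 9.30, 10.19 and 10.93 in dexamethasone arrays, and 8.18, 7.31 and 8.30 in vehicle arrays. All 6 arrays with dexamethasone, with or without testosterone, lay above the 3 vehicle arrays, and the combination and dexamethasone arrays overlapped. The dexamethasone mean was 4.63 times the vehicle mean, with a log2 difference of 2.21 ± 0.46 (SE), a 95% interval of 1.18 to 3.24 and an adjusted p of 0.0601 (limma). This missed the threshold of 0.05, and in 4 of 20 alternative settings the adjusted p was under it (0.0319 to 0.185 over all 20). Within batch A the difference was 1.07 and within batch B it was 2.87. The combination differed from vehicle by 1.84 ± 0.46 (adjusted p = 0.802) and from dexamethasone by -0.37 ± 0.46 (adjusted p = 0.848, 95% interval -1.40 to 0.65). Within batches the combination minus dexamethasone was 0.41 in A, 0.18 in B and -1.71 in C, and without dexamethasone replicate 3 it was 0.022. Fewer cells of a type and less RNA per cell cannot be told apart in a homogenized piece of muscle, for this and every later value.

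**Figure D2:**
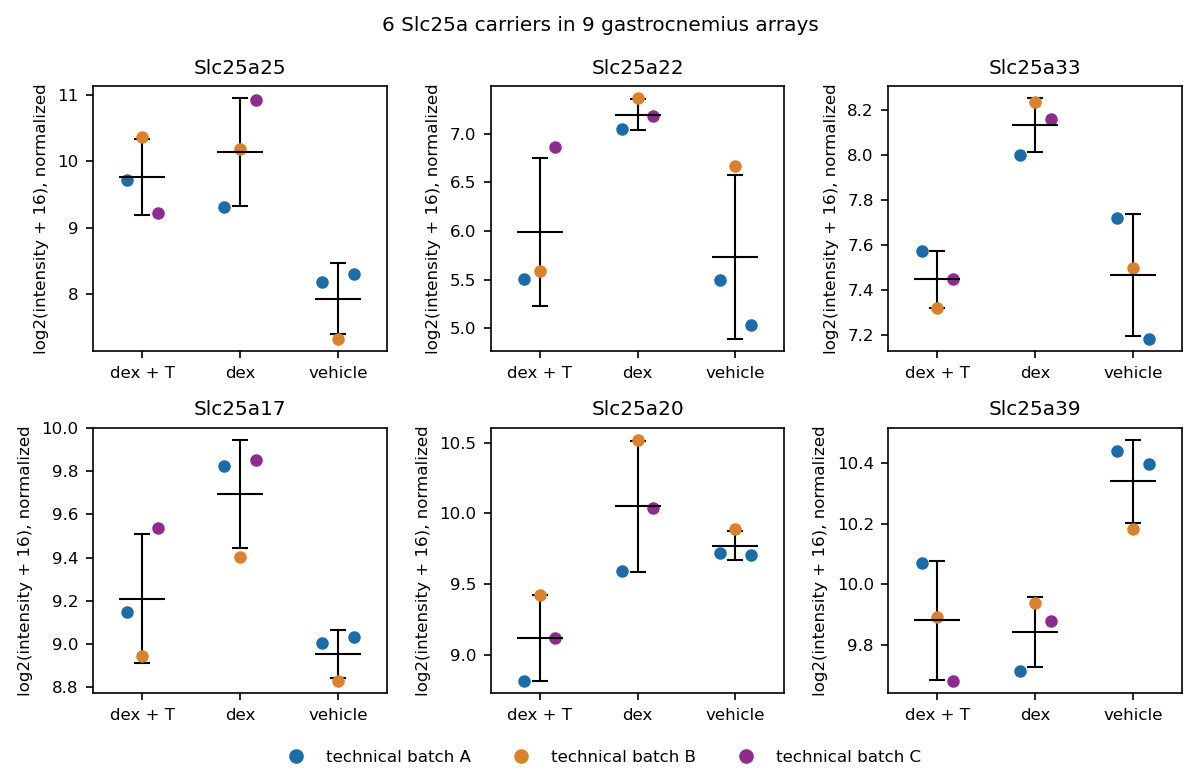
Normalized log2(intensity + 16) of 6 Slc25a genes (y axis) in the combination (dex + T), dexamethasone (dex) and vehicle arrays (x axis), each point 1 animal coloured by technical batch, with the group mean (line) and SD (bar, n = 3). The 3 vehicle values of Slc25a25 (7.31 to 8.30) lie below all 6 others (9.22 to 10.93), and the 3 dexamethasone values of Slc25a33 (8.0 to 8.24) lie above all 6 others (7.18 to 7.72).

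The close relatives of Slc25a25 that carry the same solutes are Slc25a24, Slc25a23 and Slc25a41, and none of them passed the test in any comparison. Slc25a24 was 7.94, 7.56 and 8.05 in combination arrays, 7.30, 6.69 and 7.64 in dexamethasone arrays, and 7.69, 7.42 and 8.20 in vehicle arrays. Dexamethasone arrays were on the low side and overlapped both other groups. The differences were -0.56 ± 0.30 for dexamethasone minus vehicle (adjusted p = 0.418) and 0.64 ± 0.30 for the combination minus dexamethasone (adjusted p = 0.486). Slc25a23 had 2 tested probe sets, and the brighter overlapped in all comparisons. It gave -0.48 ± 0.32 for dexamethasone minus vehicle and -0.09 ± 0.32 for the combination minus vehicle. The dimmer of its tested probe sets lay at 6.78, 7.09 and 6.15 in combination arrays, 6.98, 7.32 and 6.03 in dexamethasone arrays, and 7.56, 7.49 and 7.54 in vehicle arrays, so that all 6 hormone-treated arrays were below the vehicle arrays and the 2 batch C arrays were lowest. Its differences were -0.75 ± 0.35 for dexamethasone minus vehicle (adjusted p = 0.347) and -0.86 ± 0.35 for the combination minus vehicle (adjusted p = 0.815). Within batch B they were -0.16 and -0.40. Batch A had the same signs, with dexamethasone at 6.98 and the combination at 6.78 against vehicle values of 7.56 and 7.54. Slc25a41 overlapped in all comparisons, with 0.22 ± 0.37 for dexamethasone minus vehicle and 0.38 ± 0.37 for the combination minus vehicle.

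The carriers that serve oxidative phosphorylation directly did not pass the test. Slc25a4 and Slc25a3 lay close to the top of the normalized scale, where the muscle actin Acta1 averaged 15.01 in combination and dexamethasone arrays alike and 14.95 in vehicle arrays, and a small difference there does not show that levels were equal. Slc25a4, the heart and muscle ADP/ATP translocase, was 14.78, 14.79 and 14.78 in combination arrays, 14.56, 14.80 and 14.66 in dexamethasone arrays, and 14.76, 14.80 and 14.76 in vehicle arrays. Only dexamethasone replicates 1 and 3 lay below the rest, and the 95% interval of dexamethasone minus vehicle ran from -0.46 to 0.26 (-0.10 ± 0.16, adjusted p = 0.813). Slc25a3, the phosphate carrier, was 14.47, 14.53 and 14.59 in combination arrays, 14.20, 14.47 and 14.60 in dexamethasone arrays, and 14.53, 14.50 and 14.36 in vehicle arrays. Its groups overlapped, with an interval of -0.44 to 0.36 for the same comparison. Slc25a5, a second ADP/ATP translocase, was 10.35, 10.12 and 9.66 in combination arrays, 10.19, 10.53 and 10.49 in dexamethasone arrays, and 10.36, 10.52 and 10.62 in vehicle arrays. The combination arrays all lay below the vehicle arrays, although replicate 1 of both groups nearly met, and the difference of -0.46 ± 0.22 had an adjusted p of 0.83.

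Pyrimidine nucleotides are carried by Slc25a33 and Slc25a36. Slc25a33 was 7.58, 7.32 and 7.45 in combination arrays, 8.0, 8.24 and 8.16 in dexamethasone arrays, and 7.72, 7.50 and 7.18 in vehicle arrays. All 3 dexamethasone arrays stood above the 6 others, and the combination and vehicle arrays overlapped. The dexamethasone mean was 1.59 times the vehicle mean (0.67 ± 0.20, adjusted p = 0.143), and the combination mean was 1.61-fold lower than the dexamethasone mean (-0.68 ± 0.20, adjusted p = 0.226). The sign was the same in each batch, at 0.55 and 0.74 for dexamethasone minus vehicle in batches A and B, and at -0.43, -0.91 and -0.71 for the combination minus dexamethasone in batches A, B and C. The combination and vehicle means differed by -0.02 (95% interval -0.46 to 0.42). Slc25a36, by its brighter probe set, was 9.51, 9.61 and 9.41 in combination arrays, 9.62, 9.86 and 9.87 in dexamethasone arrays, and 9.98, 9.75 and 10.06 in vehicle arrays. The combination arrays were the lowest 3 of the 9, although combination replicate 2 (9.61) and dexamethasone replicate 1 (9.62) nearly met. The combination differed from vehicle by -0.42 ± 0.18 (adjusted p = 0.815) by this probe set and by -0.24 ± 0.20 by the other.

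Among the amino acid carriers, Slc25a22 had the largest differences. It encodes a glutamate carrier of the inner membrane. Its values were 5.51, 5.59 and 6.87 in combination arrays, 7.04, 7.37 and 7.18 in dexamethasone arrays, and 5.49, 6.67 and 5.03 in vehicle arrays. The dexamethasone arrays were the highest 3 of the 9 and close together, while combination replicate 3 and vehicle replicate 2 stood well above the others of their groups. The dexamethasone mean was 2.76 times the vehicle mean (1.46 ± 0.46, adjusted p = 0.169), and the combination mean was 2.31-fold lower than the dexamethasone mean (-1.21 ± 0.46, adjusted p = 0.385). Within batches, dexamethasone minus vehicle was 1.78 in A and 0.69 in B. The combination minus dexamethasone was -1.54 in A, -1.78 in B and -0.31 in C. Several of the combination and vehicle values lie below 5.75, the mean under which probe sets were left out. Slc25a18, the second glutamate carrier, was below the filter and was not tested.

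For Slc25a38 and Slc25a29, neither of which passed the test, all 3 dexamethasone arrays lay above the vehicle arrays. Slc25a38, a glycine carrier needed for haem synthesis, was 7.80, 7.94 and 8.25 in combination arrays, 8.18, 8.15 and 8.37 in dexamethasone arrays, and 7.81, 7.83 and 7.66 in vehicle arrays. Dexamethasone arrays overlapped combination arrays, and the difference from vehicle was 0.47 ± 0.18 (adjusted p = 0.265). Slc25a29, which carries basic amino acids, was 7.75, 7.36 and 8.31 in combination arrays, 8.01, 8.05 and 8.22 in dexamethasone arrays, and 7.77, 7.29 and 7.55 in vehicle arrays. It showed the same order of groups, with 0.56 ± 0.26 for dexamethasone minus vehicle (adjusted p = 0.345). For both genes combination replicate 3, of batch C, was the highest combination array.

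The aspartate-glutamate carriers of the malate-aspartate shuttle, Slc25a12 and Slc25a13, overlapped between dexamethasone and vehicle. Slc25a12 was 12.20, 11.96 and 12.23 in combination arrays, 12.01, 12.69 and 12.18 in dexamethasone arrays, and 12.02, 12.09 and 11.86 in vehicle arrays, with a single high array, dexamethasone replicate 2. Its difference from vehicle was 0.30 ± 0.22 (adjusted p = 0.547). For Slc25a13 the brighter probe set was 5.15, 6.36 and 6.20 in combination arrays, 6.10, 6.16 and 6.67 in dexamethasone arrays, and 6.34, 7.05 and 6.92 in vehicle arrays. Combination replicate 1 was the lowest of the 9, and the combination minus vehicle difference of -0.86 ± 0.35 (adjusted p = 0.815) stood beside -0.33 ± 0.34 by the gene's other probe set. Slc25a44, which carries branched-chain amino acids, was 7.76, 8.04 and 8.46 in combination arrays, 7.74, 6.47 and 8.38 in dexamethasone arrays, and 7.93, 7.97 and 7.89 in vehicle arrays. Dexamethasone replicate 2 was the lowest of the 9, while dexamethasone replicate 3 lay above all vehicle arrays. Dexamethasone minus vehicle was -0.40 ± 0.42, with -0.17 in batch A and -1.50 in batch B. Slc25a15, the ornithine carrier, had 5 tested probe sets, with dexamethasone minus vehicle from -0.61 ± 0.41 to 0.06 ± 0.21 and no adjusted p under 0.458.

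Slc25a20 carries acylcarnitines into the matrix in exchange for carnitine, a step that long-chain fatty acids need to be oxidized. It was 8.81, 9.42 and 9.12 in combination arrays, 9.59, 10.52 and 10.04 in dexamethasone arrays, and 9.72, 9.89 and 9.70 in vehicle arrays. The combination arrays were the lowest 3 of the 9, and the dexamethasone arrays lay on both sides of the vehicle arrays. The combination mean was 1.91-fold lower than the dexamethasone mean (-0.93 ± 0.26, 95% interval -1.53 to -0.34, adjusted p = 0.224) and 1.57-fold lower than the vehicle mean (-0.65 ± 0.26, adjusted p = 0.815). Within batches A, B and C the combination minus dexamethasone was -0.78, -1.10 and -0.92. Dexamethasone minus vehicle was 0.28 ± 0.26, with -0.12 in batch A and 0.63 in batch B.

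Markers of slow, oxidative fibres differed between combination arrays, and their part in the Slc25a20 values was not tested. The mean of 7 slow fibre markers was 8.54, 13.72 and 12.54 in combination arrays, 13.85, 14.18 and 13.93 in dexamethasone arrays, and 14.00, 13.71 and 13.66 in vehicle arrays. Combination replicate 1 thus had far less of these transcripts than any other array, and replicate 3 somewhat less. All 7 markers, each above the filter, had a lower mean in the combination than in dexamethasone arrays, and 0 of 7 passed the test. Their summed signal ran from 2716.8 to 97874 in combination arrays, from 110500 to 132060 in dexamethasone arrays and from 94347 to 118950 in vehicle arrays. Combination replicate 2, with a marker mean of 13.72, and dexamethasone replicate 2, with 14.18, are of the same batch. All 7 markers were lower in that combination array, and Slc25a20 differed by -1.10. Vehicle replicate 2, also of batch B, had a marker mean of 13.71, and the combination minus vehicle for Slc25a20 within batch B was -0.47. Each pair holds 1 animal per group, and the part of slow fibres in these differences was not tested. Without combination replicate 1, the combination minus dexamethasone for Slc25a20 was -0.78 (adjusted p = 0.467, limma). Slc25a34 and the brighter probe set of Slc25a13 were also lowest in combination replicate 1. Without it, Slc25a34 differed by -0.35 between the combination and dexamethasone (-0.91 with it), and Slc25a13 differed by -0.48 between the combination and vehicle (-0.86 with it).

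Slc25a34 and Slc25a35, close relatives of each other whose solutes are poorly defined, were grouped here with the carboxylate carriers. Each had a higher mean in dexamethasone arrays than in either other group, without passing the test. Slc25a35 was 6.43, 7.10 and 7.58 in combination arrays, 7.19, 6.91 and 7.64 in dexamethasone arrays, and 6.51, 6.66 and 6.29 in vehicle arrays. Dexamethasone arrays lay above vehicle arrays, and the difference was 0.75 ± 0.31 (adjusted p = 0.284), with 0.78 in batch A and 0.25 in batch B. The 2 arrays of batch C, which holds no vehicle array, were the highest of the 9. Slc25a34 was 6.62, 8.44 and 8.18 in combination arrays, 8.23, 8.88 and 8.86 in dexamethasone arrays, and 8.27, 7.65 and 7.89 in vehicle arrays. Combination replicate 1 stood far below the rest, and the combination minus dexamethasone was -0.91 ± 0.44 (adjusted p = 0.509). Slc25a1, which exports citrate for fat synthesis, was 6.98, 7.10 and 5.71 in combination arrays, 6.67, 5.61 and 6.17 in dexamethasone arrays, and 6.99, 7.05 and 6.16 in vehicle arrays. Its groups overlapped, with -0.58 ± 0.43 for dexamethasone minus vehicle (adjusted p = 0.563). Slc25a11, the oxoglutarate-malate carrier of the malate-aspartate shuttle, differed by -0.22 ± 0.26 in that comparison, and Slc25a10, the dicarboxylate carrier, by 0.10 ± 0.24.

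For the 4 tested carriers of cofactors, dexamethasone minus vehicle ran from 0.09 to 0.74, and none passed the test. Slc25a17, a peroxisomal carrier of coenzyme A and related nucleotides, was 9.15, 8.95 and 9.54 in combination arrays, 9.83, 9.40 and 9.85 in dexamethasone arrays, and 9.0, 8.83 and 9.03 in vehicle arrays. The dexamethasone arrays lay above the vehicle arrays, and of the combination arrays replicate 3 alone reached the dexamethasone range. Dexamethasone minus vehicle was 0.74 ± 0.22 (1.67-fold, adjusted p = 0.144), with 0.81 in batch A and 0.58 in batch B, and the combination minus dexamethasone was -0.48 ± 0.22 (adjusted p = 0.462). Slc25a16, a carrier tied to coenzyme A, was 7.08, 7.38 and 6.96 in combination arrays, 7.79, 7.51 and 7.57 in dexamethasone arrays, and 7.42, 7.19 and 7.62 in vehicle arrays. Its combination arrays lay below the dexamethasone arrays (-0.48 ± 0.20, adjusted p = 0.419). Slc25a32, linked to folate and flavin transport, had a combination minus vehicle difference of 0.39 ± 0.23 (adjusted p = 0.849). Slc25a42, a coenzyme A carrier, overlapped in all comparisons.

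Iron and glutathione reach the matrix through another set of carriers. Slc25a39, needed for glutathione import into mitochondria, was 10.07, 9.89 and 9.68 in combination arrays, 9.72, 9.94 and 9.88 in dexamethasone arrays, and 10.44, 10.18 and 10.39 in vehicle arrays by its brighter probe set. All 6 hormone-treated arrays lay below the vehicle arrays. The dexamethasone mean was 1.41-fold lower than the vehicle mean (-0.49 ± 0.18, adjusted p = 0.235), and the combination mean 1.37-fold lower (-0.46 ± 0.18, adjusted p = 0.815). Over the 20 alternative settings the first difference ran from -0.57 to -0.07 and the second from -0.55 to -0.11. The other probe set of Slc25a39 gave 0.13 ± 0.40 and -0.43 ± 0.40, with overlapping groups. Slc25a28, the iron carrier mitoferrin of most tissues, was 9.49, 9.57 and 10.005 in combination arrays, 10.19, 9.77 and 10.25 in dexamethasone arrays, and 9.83, 9.30 and 9.65 in vehicle arrays. The dexamethasone arrays were on the high side with an overlap by vehicle replicate 1 (0.47 ± 0.23, adjusted p = 0.378). Slc25a37, the mitoferrin of red cell precursors, differed by 0.12 ± 0.37. Erythroid markers averaged 7.93 to 8.59 in combination arrays, 7.34 to 8.17 in dexamethasone arrays and 8.62 to 9.25 in vehicle arrays over 3 of 5 genes, 2 of them above the filter. Their summed signal ran from 2757.2 to 6091.9 in combination arrays, from 1188.6 to 4626.7 in dexamethasone arrays and from 5418.9 to 7766 in vehicle arrays, and their part in the values of Slc25a39, Slc25a28, Slc25a37 and Slc25a38 was not tested.

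The carriers close to the uncoupling proteins, Slc25a14, Slc25a27 and Slc25a30, overlapped in all comparisons. Slc25a14 was 5.94, 5.93 and 7.31 in combination arrays, 6.44, 6.28 and 7.18 in dexamethasone arrays, and 5.91, 5.93 and 6.37 in vehicle arrays, with both batch C arrays highest. Slc25a30 differed by -0.10 ± 0.22 for dexamethasone minus vehicle by its brighter probe set. Slc25a46, of the outer membrane, had differences of opposite sign in its probe sets, -0.04 ± 0.24 and 0.12 ± 0.34. Slc25a51l1, related to a carrier of NAD, was 9.77, 9.50 and 7.05 in combination arrays, 9.39, 9.54 and 7.60 in dexamethasone arrays, and 9.29, 9.72 and 9.47 in vehicle arrays. Only the 2 arrays of batch C were low, with a mean difference of -2.22 from the other 4 combination and dexamethasone arrays. Its differences of -0.65 ± 0.72 for dexamethasone and -0.72 ± 0.72 for the combination minus vehicle (adjusted p = 0.719 and 0.903) cannot be told apart from the batch, and within batches A and B dexamethasone minus vehicle was 0.01 and -0.18. Of the 46 probe sets, 2 were over 1 log2 unit lower in batch C than in the other 4 combination and dexamethasone arrays and 1 over 1 unit higher (Slc25a51l1 and 1 of Slc25a15 lower, Slc25a14 higher), against 6.97% and 1.12% of all probe sets.

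**Figure D3:**
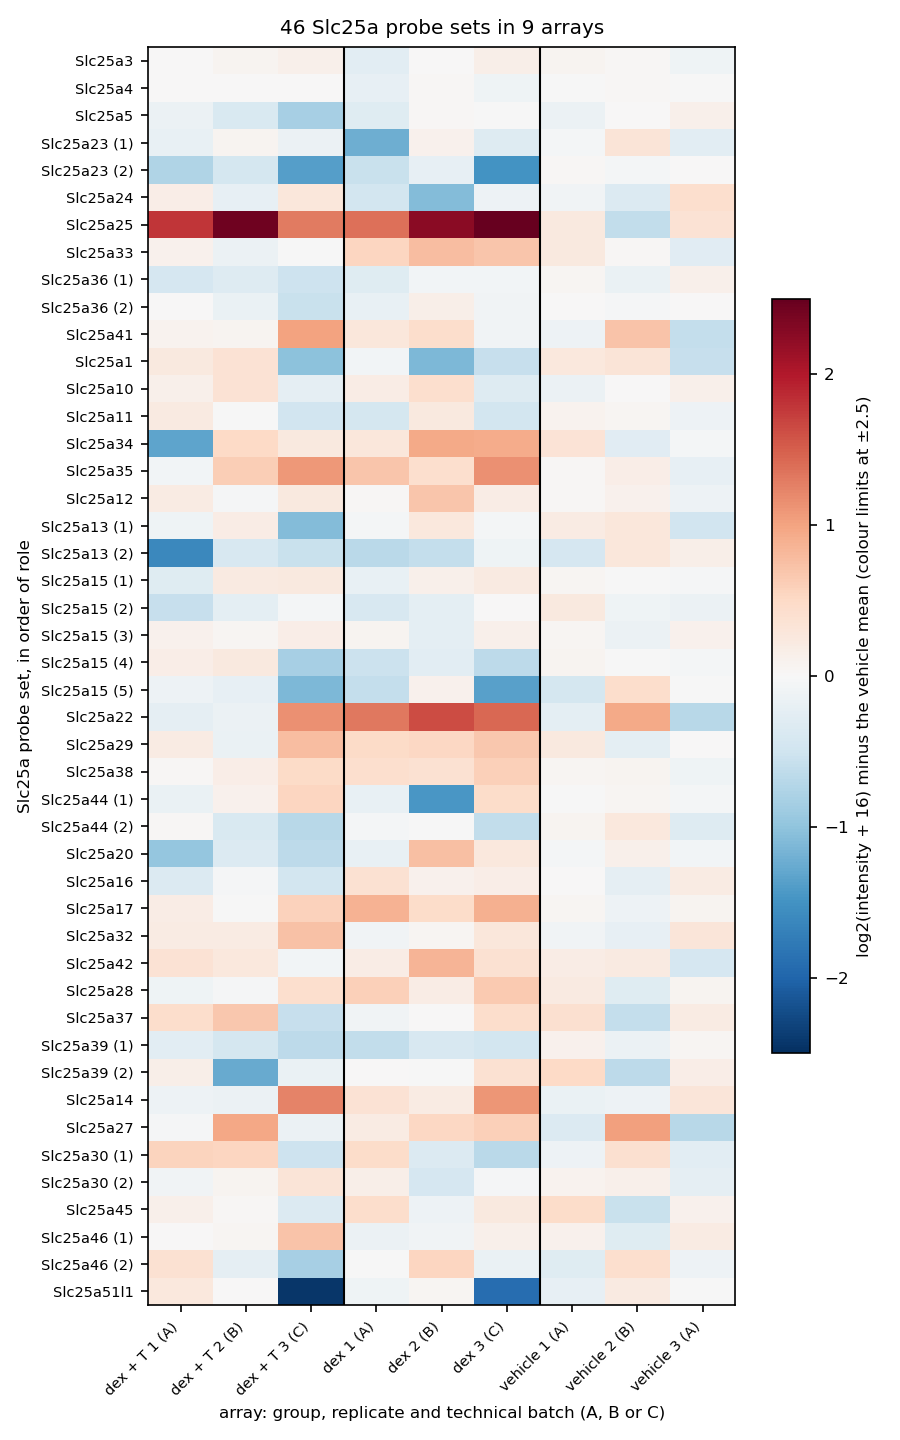
Normalized log2(intensity + 16) of the 46 tested Slc25a probe sets (y axis, by role) in each of the 9 arrays (x axis, with the technical batch in brackets), as the difference from the mean of the 3 vehicle arrays. Slc25a25 is high in all 6 arrays with dexamethasone, Slc25a22 in the 3 dexamethasone arrays and combination replicate 3, and Slc25a51l1 is low in the 2 arrays of batch C.

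Probe sets of the same gene did not always run the same way. Of the 8 genes with several tested probe sets, 6 (Slc25a13, Slc25a15, Slc25a23, Slc25a39, Slc25a44 and Slc25a46) had probe sets whose differences had opposite signs in at least 1 comparison, and none of these was past the threshold. For dexamethasone minus vehicle, Slc25a39 gave -0.49 and 0.13, Slc25a13 gave -0.46 and 0.06, and Slc25a15 gave from -0.61 to 0.06. Slc25a30 and Slc25a36 had the same sign in both probe sets in every comparison.

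**Figure D4:**
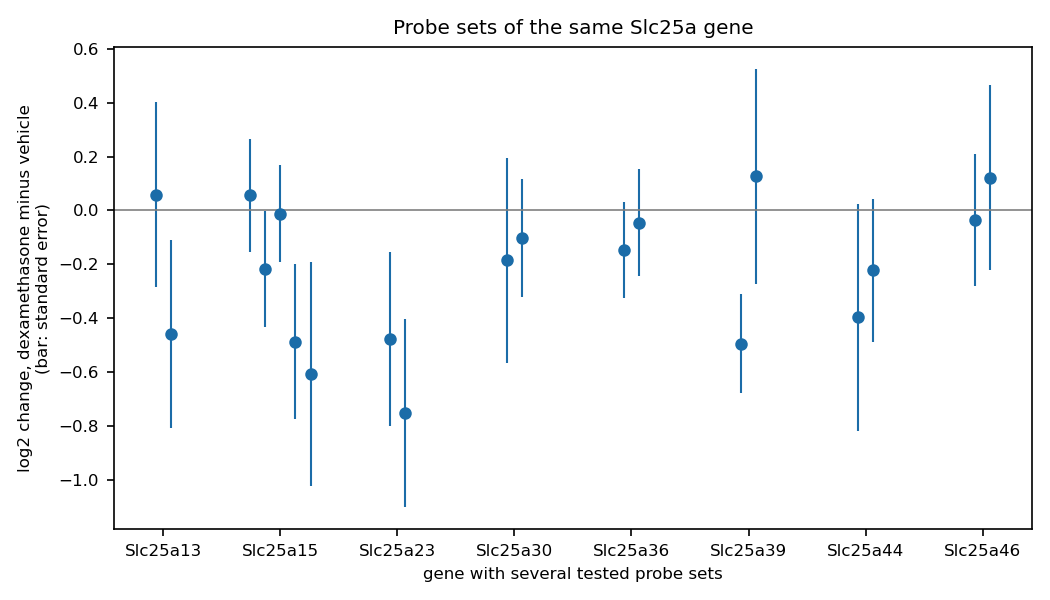
Log2 difference of dexamethasone minus vehicle (y axis, bar: standard error) for each tested probe set (points) of the 8 Slc25a genes with several (x axis). The probe sets of Slc25a39 lie at -0.49 and 0.13, and the 5 of Slc25a15 between -0.61 and 0.06.

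The 12 probe sets below the filter were not tested: Slc25a18, Slc25a21, Slc25a31, Slc25a53, both of Slc25a48, 2 of Slc25a27 and 1 each of Slc25a10, Slc25a15, Slc25a23 and Slc25a32. For Slc25a18, Slc25a21, Slc25a31, Slc25a48 and Slc25a53 no probe set passed. Their means over the 9 arrays were between 4.39 and 5.69 on a scale whose floor is 4. Slc25a53 had 6.18, 5.74 and 5.92 in combination arrays, 5.91, 6.16 and 5.90 in dexamethasone arrays, and 4.79, 5.59 and 5.01 in vehicle arrays. Its vehicle arrays were the lowest 3. Slc25a18 had 6.19, 4.99 and 5.71 in combination arrays, 4.59, 4.69 and 4.46 in dexamethasone arrays, and 5.91, 5.63 and 6.13 in vehicle arrays. Its dexamethasone arrays were the lowest 3. These values are given without a test, and the genes were picked for their values.

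Other genes of mitochondrial transport were counted by list, and 0 of them passed the test in either direction in any comparison. Of all probe sets, 1.05% passed for dexamethasone minus vehicle, 0.113% for the combination minus dexamethasone and 0% for the combination minus vehicle. Uncoupling proteins and relatives with other symbols had 4 tested genes, other transport proteins of the mitochondrial membranes 11, the import machinery through which carriers reach the inner membrane 12, and the enzymes of the malate-aspartate shuttle and the carnitine cycle 8. Their median differences for dexamethasone minus vehicle were 0.40, -0.10, 0.04 and 0.19, and for the combination minus dexamethasone -0.30, 0.07, 0.15 and -0.32. Cpt1b, the muscle enzyme that makes the acylcarnitines Slc25a20 carries, was 11.82, 11.91 and 11.93 in combination arrays, 12.73, 13.15 and 12.75 in dexamethasone arrays, and 12.32, 11.97 and 12.24 in vehicle arrays. Its 3 groups did not overlap, although combination replicate 3 and vehicle replicate 2 were close, and the combination minus dexamethasone was -0.99 ± 0.19 (adjusted p = 0.0959). Cpt1b is named for its link to Slc25a20, after its values were seen.

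Fibroblast markers were lower in dexamethasone than in vehicle arrays, and their part in the carrier values was not tested. This held for all 8 of 8 markers by their means, all above the filter, and 1, Mfap5, fell past the threshold (-1.75 ± 0.29, adjusted p = 0.0338). Their summed signal ran from 11380 to 33684 in combination arrays, from 4302.3 to 15375 in dexamethasone arrays and from 28306 to 43834 in vehicle arrays.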

How the data were processed

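Total RNA of gastrocnemius muscle of 9 male rats was hybridised to 1 Affymetrix rat array each. Per the labels' protocols, 20 mg of muscle was homogenized in guanidine isothiocyanate, phenol and chloroform were used for the RNA, columns for its clean-up, and the maker's protocol for labelling. The authors deposited 1 linear intensity per probe set and array. The sources used here give neither the signal algorithm nor its scaling, and 4 of the 9 arrays had not been scaled to the mean of 500 of the others.

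The 57 Affymetrix controls were left out. Array medians spanned 1.82 on the log2 scale, so log2(intensity + 16) was computed, 16 being the pseudocount, and quantile normalized (limma 3.58.1 in R 4.3.3). A filter dropped those whose mean was under the 40th percentile (5.75) and kept 18625. Each was fitted with 1 mean per group over all 9 arrays (lmFit and eBayes), with Benjamini-Hochberg adjustment over all 18625 in each comparison and a threshold of 0.05. Standard errors and 95% intervals come from this fit, and the number of arrays limits their precision. The fit was also run on simulated data, with known changes put into noise drawn separately for each array and without technical batches. That run does not show how batch differences affect the p-values. Symbols of the carriers came from the platform annotation as given. For the other gene lists they were updated by gene ID to the rat annotation GRCr8. Figures were drawn with matplotlib 3.10.9.

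The technical batches were set by the deposited scaling and by the Gapdh 3′ to 5′ ratio (over 3). Replicate numbers in the labels name the animals of a group. Deviations of samples with the same number correlated at 0.03, 0.30 and 0.11 for dexamethasone and vehicle. They correlated at 0.06, 0.37 and 0.59 for the combination and dexamethasone, and at -0.20, 0.14 and 0.06 for the combination and vehicle. The highest, 0.30, 0.37 and 0.59, were between arrays of the same technical batch, as were 0.03, 0.06 (combination and dexamethasone), -0.20 and 0.14. A shared number and a shared batch thus cannot be told apart, and the numbers were not taken to pair animals.

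The text names 18 carriers by role whatever their result (1 more, Slc25a26, was not analysed here), the 4 highest and the 4 lowest members of each comparison, and members whose probe sets differ in sign. Of several probe sets of a gene, the brightest on average is described first. The members, lists and rules were chosen with earlier results of these data known. Alternatives were another scaling, pseudocount, filter and variance model, only the arrays compared, the replicate number or batch as a block, and each array or batch C left out.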

Additional observations from a re-analysis of the deposited data

How the results depend on the processing

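No Slc25a probe set passed the threshold for the combination against dexamethasone or against vehicle in any alternative. For dexamethasone minus vehicle the count was 1, Slc25a25 (higher), under median scaling (adjusted p = 0.0397), a pseudocount of 64 (0.0319), a filter at the 60th percentile (0.0339) and an intensity trend with robust variance (0.0343), and 0 in the other alternatives. Its log2 difference ran from 1.82 to 2.63 over the 20 alternatives with a test, with adjusted p from 0.0319 to 0.185. The median difference of the members for dexamethasone minus vehicle was 0.23 under median scaling (0.06 as reported), where the median of all probe sets was 0.20. For the combination minus dexamethasone (-0.14 as reported) it was 0.027 within batch A, -0.076 within batch B and -0.147 within batch C. Over the 46 tested probe sets, 61 of 138 differences took the other sign in at least 1 alternative with a test (146 of 2724 values), and none of these was past the threshold in either setting. The largest of the reported sizes among them was 0.72, of Slc25a51l1 between the combination and vehicle.

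The count of all probe sets past the threshold for dexamethasone minus vehicle, 196 as reported, was 130 under median scaling, 54 with a pseudocount of 1, 414 with a pseudocount of 64, 48 with no filter, 469 with the filter at the 60th percentile, 510 with the trend, 123 with only the 6 arrays compared, 13 with the replicate block and 444 without batch C. Leaving out 1 array gave 1 to 333: 2, 1 and 1 without vehicle replicates 1, 2 and 3, 3, 10 and 333 without dexamethasone replicates 1, 2 and 3, and 49 without combination replicate 2. For the combination minus dexamethasone, 21 as reported, it was 6 under median scaling, 12 with arrays scaled to a mean of 500, 5 and 102 with pseudocounts of 1 and 64, 0 with no filter, 83 with the 60th percentile filter, 149 with the trend, and 0 with only the 6 arrays, with the replicate block and without batch C. Leaving out 1 array gave 0 to 68, with 68 without dexamethasone replicate 3, 5 and 1 without vehicle replicates 1 and 2, and 0 without each of the others. For the combination minus vehicle it was 0 in every alternative. With the replicate block, no Slc25a carrier passed in any comparison. The share of probe sets past the threshold that stands beside the members' counts thus depends on the setting; the cause was not tested. With 3 animals per group the 95% intervals of the carriers are wide, and probe sets near the filter lie close to the floor of the scale.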
